A study of Mus musculus with 15 samples.

Results

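The 8 genes described here are renal lineage transcription factors and tubule markers, read by symbol from a table of 24891 genes in 105K tumor material. The lineage factors are 6 of the 8 (PAX2, PAX8, LHX1, EMX2, WT1 and HNF4A), and the tubule markers are the other 2 (CDH16 and CALB1). All 8 are listed in the table, so none was lost. 105K cells are Tsc2-deficient mouse cells whose source was a kidney tumor in a Tsc2+/− animal. They stably expressed a non-targeting shRNA (sh-NC) or 1 of 2 shRNAs against B7-H3, labelled sh-B7-H3 (1) and, for the other, sh-B7-H3 (2), and were grown under the skin of male C57BL/6J mice that were 6 weeks old. RNA was sequenced from 15 libraries, 3 in each of 5 groups. These were bulk sh-NC tumors, bulk sh-B7-H3 (1) tumors, and sorted sh-NC, sorted sh-B7-H3 (1) and sorted sh-B7-H3 (2) cells, where sorted cells are those left after magnetic removal of non-tumor cells. All groups rest on the same 105K line, and a shared Tsc2 deficiency therefore runs through every comparison. The methods speak of biological samples, but the labels do not tie libraries to separate animals, so p-values measure only the spread between these libraries.

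PAX2 and PAX8 are paired-box factors that mark the renal lineage from the intermediate mesoderm onward and are kept in many renal epithelial tumors. LHX1, a LIM-homeodomain factor, is used in the early renal vesicle together with the secreted signal WNT4, and EMX2, a homeobox factor, acts in the epithelium of the urogenital tract. WT1 is a zinc finger factor of nephron progenitors and podocytes, and HNF4A is a nuclear receptor that drives the proximal tubule program. CDH16, or Ksp-cadherin, is a cadherin of tubule epithelium, and CALB1 is calbindin-D28k, a calcium-binding protein of the distal convoluted and connecting tubule.

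CD276, which encodes B7-H3, was lower in the libraries labelled sh-B7-H3 (1) among sorted cells (7.29 to 14.0 against 17.3 to 34.0 scaled FPKM in sh-NC), with a log2 fold change of -1.04 (limma adjusted p = 0.0547). It was not lower in sorted libraries labelled sh-B7-H3 (2), at 23.3 to 25.7 (log2 fold change 0.12, limma adjusted p = 0.775), nor in bulk tumors labelled sh-B7-H3 (1) (-0.07, limma adjusted p = 0.709), so all these libraries are named by their labels. Sorted sh-B7-H3 (2) replicate 1 stood apart, with 685.5 scaled FPKM summed over 14 leukocyte markers against 62.8 and 73.1 in the other 2 libraries of its group. Values are FPKM divided by a median-ratio factor per library, called scaled FPKM, and relative depth ran from 0.468 to 1 (the deepest library). A gene was tested with limma on log2(scaled FPKM + 1) when at least 3 libraries of a comparison had 1 scaled FPKM or more, and a gene with a Benjamini-Hochberg adjusted p below 0.05 is counted as called. Log2 values in the text are differences on that scale.

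LHX1 and a noncoding gene beside it, LHX1OS, start back to back, and both moved in the same libraries. In the RefSeq annotation of GRCm38.p6, LHX1 runs on the minus strand and LHX1OS on the plus strand, with 125 bases between the start sites. This segment is shown because the data bear on both of its sides, and the segment of another pair of opposed start sites among these genes, EMX2OS and EMX2 (54 bases), is shown beside it. WT1OS and WT1 also start back to back, at chr2:105126510 and chr2:105126529 in the GENCODE annotation. The RefSeq promoters held no entry for WT1, so that segment is not shown. The 2 segments shown are given on the plus strand, the first at chr11:84525535-84525659 and the second at chr19:59458636-59458689, and capitals mark the only match to the motifs that were searched.
LHX1/LHX1OS: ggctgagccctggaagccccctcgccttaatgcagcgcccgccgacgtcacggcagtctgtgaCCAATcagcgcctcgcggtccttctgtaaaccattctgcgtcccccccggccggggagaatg
EMX2OS/EMX2: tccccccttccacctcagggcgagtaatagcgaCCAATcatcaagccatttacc
The LHX1/LHX1OS segment had a GC content of 66.4% and held 12 CG dinucleotides, and the EMX2OS/EMX2 segment had 53.7% and 2. Each held 1 CCAAT box (CCAAT, searched on both strands). Among windows of the same length, taken just before each of 32817 RefSeq start sites, 21.8% of windows of 125 bases and 9.52% of windows of 54 bases held a CCAAT box. Neither segment matched the STAT motif GAS (TTCNNNGAA, in 3.32% of the 125-base windows), the core of the interferon motif ISRE (1.30%), the TATA box TATAAA (6.55%) or the E-box CANNTG (41.6%).

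The 8 genes fell into 3 bands of level, with CDH16, EMX2, PAX8 and PAX2 at 7.77 to 121 scaled FPKM, WT1 at 1.24 to 5.77, and LHX1, HNF4A and CALB1 mostly below 1. CDH16 was the highest in every one of the 15 libraries, with a median ratio of 3.05 to EMX2. EMX2 and PAX8 could not be ordered. EMX2 was above PAX8 in 8 of 15 libraries, with non-overlapping libraries above it in both bulk groups, overlapping libraries in sorted sh-NC and sorted sh-B7-H3 (1) cells, and non-overlapping libraries below it in sorted sh-B7-H3 (2) cells. PAX8 exceeded PAX2 in 15 of 15 libraries (median ratio 1.92), although the libraries of the 2 genes overlapped among bulk sh-B7-H3 (1) tumors. PAX2 exceeded WT1 in 15 of 15 libraries (median ratio 4.47), and WT1 exceeded LHX1 in 15 of 15 (median ratio 5.34). HNF4A and CALB1 were at the bottom, with HNF4A above CALB1 in 7 libraries and equal to it at 0 in 6. Because FPKM is scaled by gene length, these levels can be set beside each other.

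**Figure D1:**
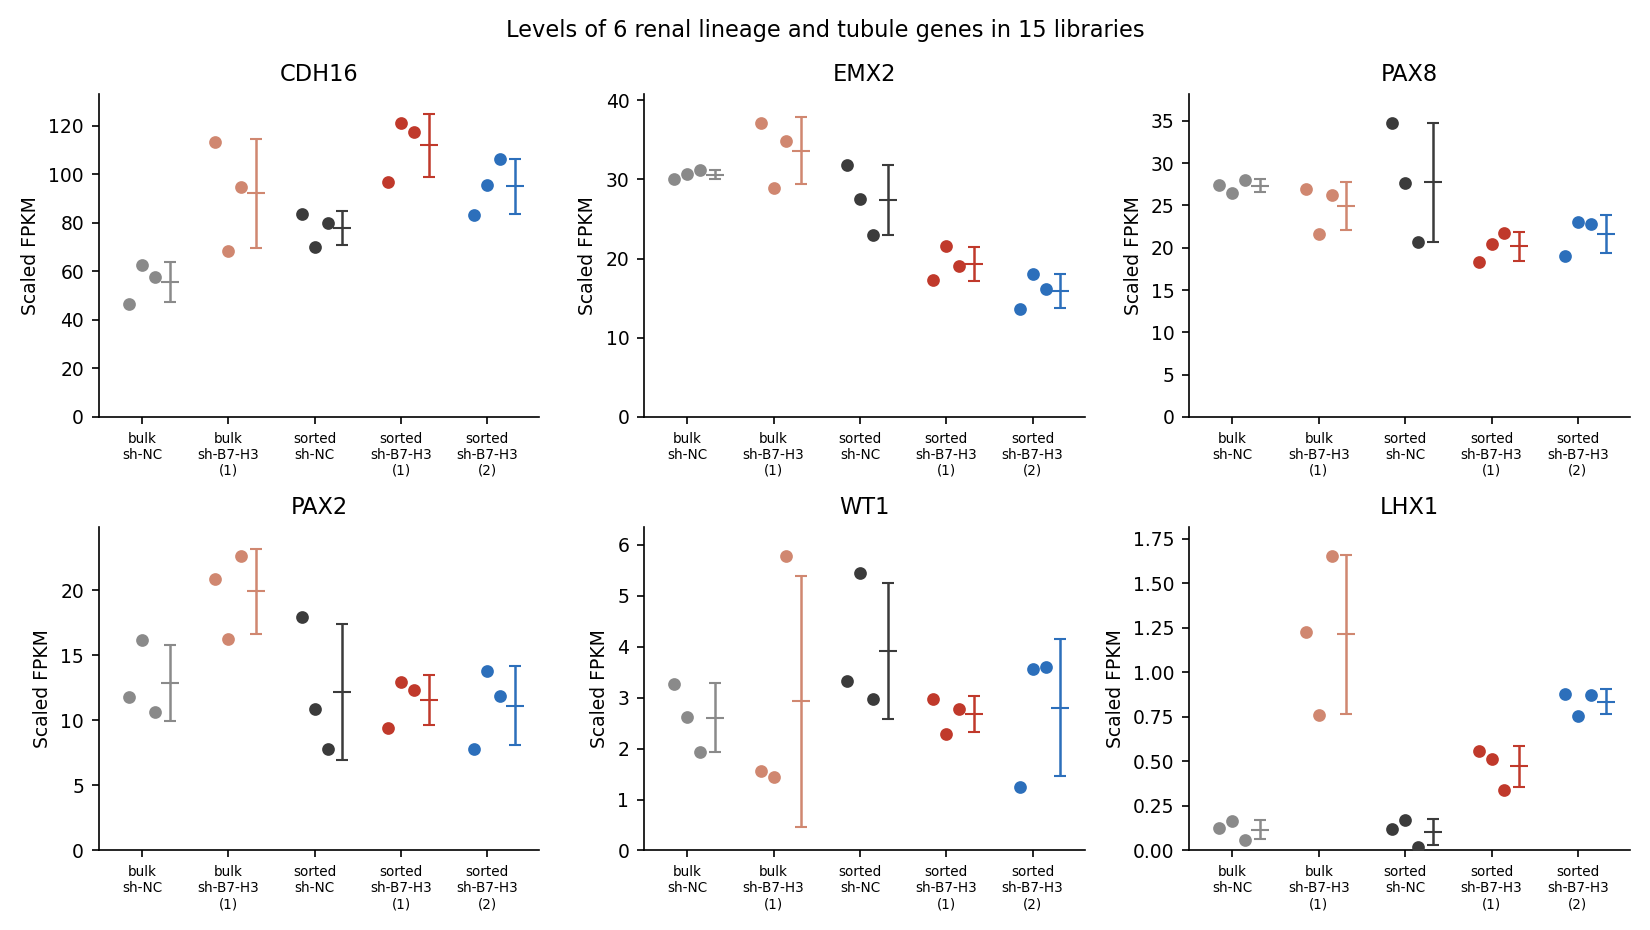
Scaled FPKM of 6 of the genes in each library (points, 3 per group), with the group mean and SD as a bar beside them, and the vertical axis starting at 0. LHX1 is below 0.17 in all sh-NC libraries and at 0.341 or more in all libraries of the sh-B7-H3 groups, while PAX8, PAX2 and WT1 overlap between sorted groups.

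LHX1 was higher in the libraries of the sh-B7-H3 groups than in sh-NC libraries, in sorted cells and in bulk tumors. It lies at chr11:84518284-84525535 on the minus strand in GENCODE M21 (GRCm38, the assembly of mm10). In sorted sh-NC cells LHX1 was at 0.121, 0.169 and 0.0208 scaled FPKM, and in bulk sh-NC tumors at 0.125, 0.164 and 0.0591. It was at 0.558, 0.515 and 0.341 in sorted sh-B7-H3 (1) cells, at 0.879, 0.754 and 0.873 in sorted sh-B7-H3 (2) cells, and at 1.22, 0.763 and 1.65 in bulk sh-B7-H3 (1) tumors. Each library of the sh-B7-H3 groups was above every sh-NC library of the same material, and 13 of 15 libraries were below 1 scaled FPKM.

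The group means of LHX1 were 0.104 ± 0.0756 (SD, n = 3) in sorted sh-NC cells and 0.472 ± 0.115 (SD, n = 3) in sorted sh-B7-H3 (1) cells, a ratio of 4.55. In sorted sh-B7-H3 (2) cells the mean was 0.835 ± 0.0704 (SD, n = 3), a ratio of 8.06 to sh-NC. In bulk tumors it was 0.116 ± 0.0532 with sh-NC and 1.21 ± 0.444 with sh-B7-H3 (1) (SD, n = 3 each), a ratio of 10.4. The exact two-sided permutation test gave p = 0.1 for each of the 3 comparisons, the smallest that 3 against 3 allow. Groups that did not overlap in this direction were common, as 15.1%, 19.1% and 21.6% of the genes above 0 in any library did the same for sorted sh-B7-H3 (1), sorted sh-B7-H3 (2) and bulk sh-B7-H3 (1). Leaving out sorted sh-NC replicate 3, the lowest library, lowered the ratios in sorted cells to 3.25 and 5.76, and leaving out sorted sh-NC replicate 2 raised them to 6.64 and 11.8.

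LHX1 did not reach the filter, so the main test gave it no value. Without the filter, LHX1 rose in sorted sh-B7-H3 (1) cells by 0.41 on the log2 scale (standard error 0.08, limma adjusted p = 0.0234), where 6.89% of genes were called higher. It rose in sorted sh-B7-H3 (2) cells by 0.74 (standard error 0.06, limma adjusted p = 0.00252), against 8% of genes, and in bulk sh-B7-H3 (1) tumors by 0.97 (standard error 0.15, limma adjusted p = 0.0207), against 7.06%. The pseudocount of 1 is larger than most LHX1 values and compresses these differences. A filter of 0.1 scaled FPKM in 3 libraries with a pseudocount of 0.1 was chosen after seeing that LHX1 lay below the main filter. The log2 differences were then 1.55, 2.27 and 2.57, with limma adjusted p-values of 0.0233, 0.00422 and 0.00659. At this setting 1308 of 13585, 1671 of 13724 and 1740 of 14509 genes were called higher. Replicate 3 of sh-NC was below 0.1 in sorted cells (0.0208) and in bulk tumors (0.0591). LHX1 thus passed this filter only with its sh-B7-H3 libraries, and these tests depend on it.

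The spacing of FPKM values allowed the reads behind LHX1 to be recovered, on the assumption that the smallest common step is 1 read. They were 14, 16 and 5 reads in bulk sh-NC tumors and 111, 77 and 117 in bulk sh-B7-H3 (1) tumors. Sorted sh-NC cells had 19, 16 and 3 reads, sorted sh-B7-H3 (1) cells 61, 72 and 55, and sorted sh-B7-H3 (2) cells 86, 74 and 105. The values lay within 0.00397 of whole reads, and the sh-B7-H3 libraries held 55 to 117 reads where sh-NC libraries held 3 to 19.

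LHX1OS, the noncoding gene across the 125-base segment, was also higher in the libraries of the sh-B7-H3 groups than in sh-NC libraries, at lower depth. It had 0 reads in each bulk sh-NC library and 5, 4 and 4 in bulk sh-B7-H3 (1) tumors. Sorted sh-NC cells had 0, 2 and 0 reads, sorted sh-B7-H3 (1) cells 6, 11 and 5, and sorted sh-B7-H3 (2) cells 8, 7 and 6. No library of an sh-B7-H3 group overlapped with sh-NC (exact two-sided permutation test, p = 0.1 in each comparison). The same held for 15.1%, 19.1% and 21.6% of genes above 0 in any library, in sorted sh-B7-H3 (1), sorted sh-B7-H3 (2) and bulk sh-B7-H3 (1). Unlike LHX1, LHX1OS was not highest in bulk sh-B7-H3 (1) tumors. Its mean there was 0.477 scaled FPKM, beside 0.520 in sorted sh-B7-H3 (1) and 0.641 in sorted sh-B7-H3 (2) cells, with overlapping libraries. With a limit of 3 reads for each sh-NC library at 0, LHX1OS was at least 1.62-fold higher in bulk sh-B7-H3 (1) tumors. Without the filter it was called in sorted sh-B7-H3 (2) cells (log2 difference 0.62, limma adjusted p = 0.0178) and in bulk tumors (0.56, limma adjusted p = 0.0108), and in sorted sh-B7-H3 (1) cells the difference was 0.51 (limma adjusted p = 0.0664). Whether reads were counted by strand is not given in the sources used here, although the 2 genes do not overlap in either annotation.

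**Figure D2:**
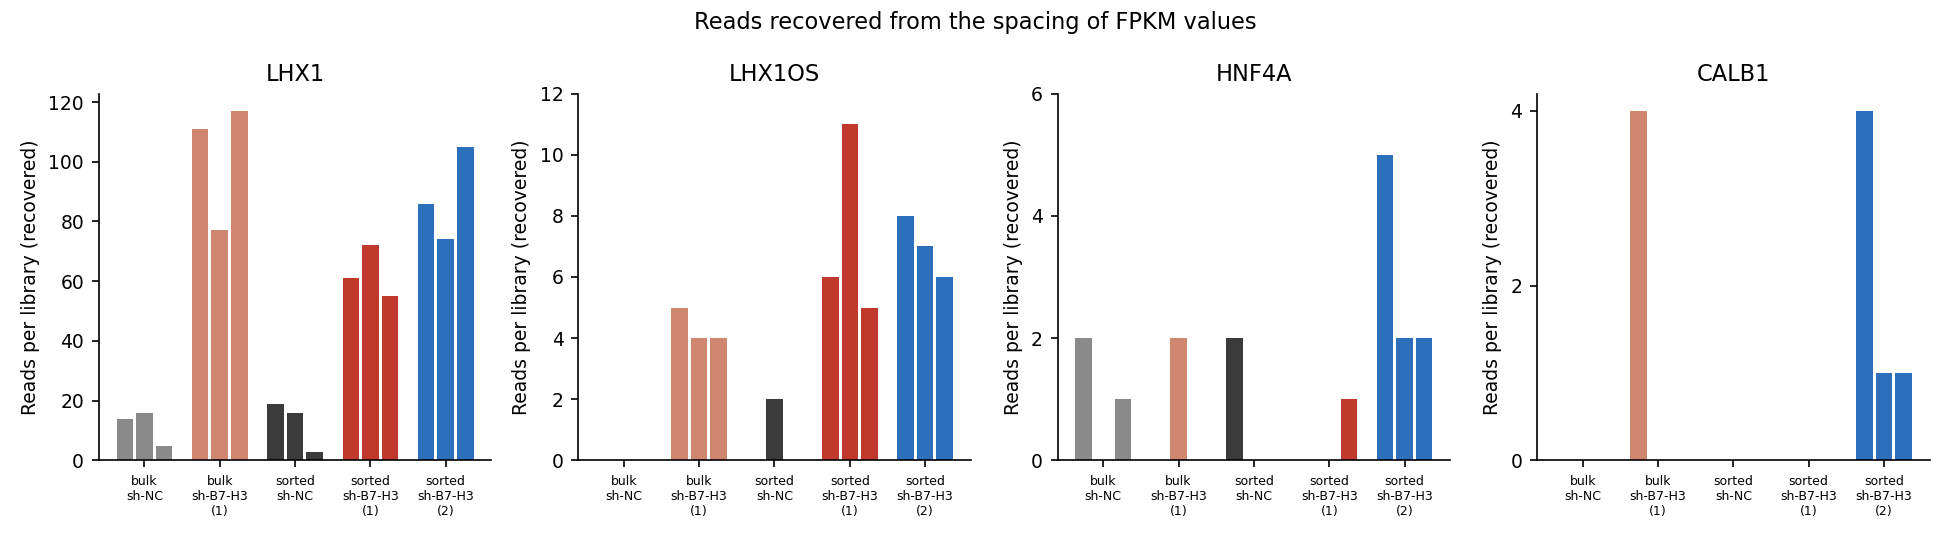
Reads per library (vertical axis, from 0) recovered from the spacing of FPKM values for LHX1, LHX1OS, HNF4A and CALB1, with 3 bars per group for replicates 1 to 3 and no bar where a library had 0 reads. LHX1 has 3 to 19 reads in sh-NC libraries and 55 to 117 in the others, while HNF4A and CALB1 never pass 5 and 4 reads.

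LHX1 also differed among the sh-B7-H3 groups. Sorted sh-B7-H3 (1) cells lay below sorted sh-B7-H3 (2) cells without overlap, with a ratio of 0.564 (exact two-sided permutation test, p = 0.1), and without the filter the log2 difference was -0.32 (95% confidence interval -0.50 to -0.14, limma adjusted p = 0.119). Sorted sh-B7-H3 (1) cells lay below bulk sh-B7-H3 (1) tumors, with a ratio of 0.389 and a log2 difference of -0.57 without the filter (limma adjusted p = 0.0489). Sorted and bulk sh-NC libraries overlapped (ratio 0.892). The share of all genes without overlap was not computed for comparisons among the sh-B7-H3 groups. The effect of sh-B7-H3 (1) in sorted cells minus its effect in bulk tumors was -0.55 without the filter (limma adjusted p = 0.248). In bulk tumors, fewer cells of a type and less RNA per cell cannot be told apart.

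Of the other members, 5 passed the filter in every comparison, namely CDH16, EMX2, PAX8, PAX2 and WT1. In sorted sh-B7-H3 (1) cells against sh-NC, 0 of these 5 were called with limma, where 13.4% of 11163 genes were. An unadjusted p below 0.05 was reached by 2 of the 5 and by 2772 of the 11163 genes. In sorted sh-B7-H3 (2) cells, 1 of 5 was called (19.1% of 11243 genes), and in bulk sh-B7-H3 (1) tumors 1 of 5 (21.4% of 11800 genes). Their median log2 differences were -0.39, -0.32 and 0.13 in these comparisons, and those of all genes tested were 0.0015, 0.0097 and 0.023. With 5 members, shares near these backgrounds say nothing particular about them.

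EMX2 lies at chr19:59458372-59465357 on the plus strand. It was at 31.8, 27.5 and 23.0 scaled FPKM in sorted sh-NC cells, at 17.3, 21.5 and 19.1 in sorted sh-B7-H3 (1) cells and at 13.7, 18.0 and 16.1 in sorted sh-B7-H3 (2) cells. All libraries of both sh-B7-H3 groups were below all sh-NC libraries of sorted cells. The share of all genes that were lower without overlap was not computed. EMX2 fell by 0.74 on the log2 scale in sorted sh-B7-H3 (2) cells (standard error 0.16, limma adjusted p = 0.0160), and the difference in sorted sh-B7-H3 (1) cells was -0.48 (standard error 0.16, limma adjusted p = 0.0943). The sh-B7-H3 (2) call was lost without sorted sh-B7-H3 (2) replicate 1, the library rich in leukocyte markers (-0.64, adjusted p = 0.0611), without replicate 3 of that group (adjusted p = 0.0697), without sorted sh-NC replicate 2 (adjusted p = 0.0674), with the replicate number as a block (adjusted p = 0.0633) and with FPKM as deposited (-0.52, adjusted p = 0.149), all by limma. The sh-B7-H3 (1) difference was called when all 5 groups were fitted together (adjusted p = 0.0247) and without sorted sh-NC replicate 3 (-0.59, adjusted p = 0.0435).

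In bulk tumors EMX2 did not follow that order. It was at 30.0, 30.7 and 31.1 scaled FPKM with sh-NC and at 37.1, 28.9 and 34.8 with sh-B7-H3 (1), and the groups overlapped. The log2 difference was 0.13 (95% confidence interval -0.13 to 0.38, limma adjusted p = 0.424). The difference between the sh-B7-H3 (1) effect in sorted cells and that in bulk tumors was -0.60 (95% confidence interval -1.02 to -0.18), with an unadjusted p of 0.00893 and a limma adjusted p of 0.232. In that comparison 0 of the 5 members were called against 0.464% of 12062 genes. An unadjusted p below 0.05 was reached by 1 of the 5 and by 1767 of the 12062 genes. EMX2OS, the antisense neighbor whose GENCODE model overlaps the start of EMX2, was at 0.632 to 1.55 scaled FPKM in the 15 libraries and was not called in any comparison (limma). Where the 2 models overlap, reads cannot be told apart without counting by strand.

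PAX8 lies at chr2:24420560-24475599 on the minus strand and was the steadiest of the lineage factors, with a ratio of 1.90 between its highest and lowest library. It was at 34.7, 27.7 and 20.7 scaled FPKM in sorted sh-NC cells, at 18.3, 20.5 and 21.7 with sh-B7-H3 (1) and at 19.0, 23.0 and 22.8 with sh-B7-H3 (2). The groups overlapped, since sorted sh-NC replicate 3 lay within the range of the others. The log2 differences were -0.41 (95% confidence interval -0.86 to 0.03, limma adjusted p = 0.235) and -0.32 (95% confidence interval -0.77 to 0.13, limma adjusted p = 0.309). Without sorted sh-NC replicate 3 the first was -0.60 and was called (limma adjusted p = 0.0457). Bulk tumors were at 27.4, 26.5 and 28.0 with sh-NC and at 26.9, 21.6 and 26.2 with sh-B7-H3 (1), a log2 difference of -0.13 (95% confidence interval -0.38 to 0.12, limma adjusted p = 0.379).

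PAX2, the paralog of PAX8, lies at chr19:44756045-44837871 on the plus strand. Among sorted cells it was at 18.0, 10.8 and 7.81 scaled FPKM with sh-NC, at 9.40, 12.9 and 12.4 with sh-B7-H3 (1) and at 7.77, 13.8 and 11.9 with sh-B7-H3 (2). The sh-NC libraries spanned nearly the whole range of the others, and the log2 differences were -0.01 (95% confidence interval -0.64 to 0.62) and -0.08 (95% confidence interval -0.79 to 0.62). In bulk tumors PAX2 was at 11.8, 16.2 and 10.7 with sh-NC and at 20.8, 16.3 and 22.6 with sh-B7-H3 (1). These groups did not overlap, but the highest sh-NC and the lowest sh-B7-H3 (1) library nearly touched. Higher values without overlap were found there for 21.6% of genes above 0 in any library. The log2 difference of PAX2 was 0.60 (95% confidence interval 0.17 to 1.03), with a limma adjusted p of 0.0551. It was called without bulk sh-NC replicate 2 (0.76, limma adjusted p = 0.0423), without bulk sh-B7-H3 (1) replicate 2 (0.73, limma adjusted p = 0.0209) and with a filter of 1 scaled FPKM in every library (limma adjusted p = 0.0443).

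WT1, at chr2:105126529-105173616 on the plus strand, had coefficients of variation of 13.4% to 84.3% within groups. It was at 3.27, 2.61 and 1.92 scaled FPKM in bulk sh-NC tumors and at 1.57, 1.44 and 5.77 in bulk sh-B7-H3 (1) tumors. Sorted cells were at 3.33, 5.45 and 2.97 with sh-NC, at 2.98, 2.28 and 2.77 with sh-B7-H3 (1) and at 1.24, 3.56 and 3.61 with sh-B7-H3 (2). The groups overlapped in all comparisons and WT1 was called in none with limma in the main fit. Without bulk sh-B7-H3 (1) replicate 3 it was called higher in sorted than in bulk sh-B7-H3 (1) material (0.55, limma adjusted p = 0.0222). The 95% confidence interval of the bulk difference was -0.96 to 0.90. WT1OS, the antisense neighbor of WT1, had at most 2 reads in a library.

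CDH16, at chr8:104601911-104624396 on the minus strand, was the only tubule marker of the pair that was expressed. In bulk tumors it was at 46.6, 62.4 and 57.6 scaled FPKM with sh-NC and at 113, 68.5 and 94.7 with sh-B7-H3 (1). The groups did not overlap, and 21.6% of genes above 0 in any library were likewise higher without overlap. CDH16 rose by 0.70 on the log2 scale in bulk sh-B7-H3 (1) tumors (standard error 0.20, limma adjusted p = 0.0470). Of the 6 bulk libraries, only leaving out bulk sh-B7-H3 (1) replicate 2 kept the call, and without each of the other 5 in turn the limma adjusted p was between 0.0875 and 0.158. The call was also lost with the replicate number as a block (limma adjusted p = 0.101), without the filter (0.0845) and with FPKM as deposited (0.143).

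Sorted cells showed CDH16 at 83.5, 70.1 and 79.9 scaled FPKM with sh-NC, at 96.9, 121 and 118 with sh-B7-H3 (1) and at 83.2, 95.6 and 106 with sh-B7-H3 (2). The sh-B7-H3 (1) libraries were above all sh-NC libraries, as they were for 15.1% of genes above 0 in any library. The log2 difference was 0.51 (95% confidence interval 0.17 to 0.86, limma adjusted p = 0.0609). It was called without sorted sh-NC replicate 1 (0.57, limma adjusted p = 0.0362). The sh-B7-H3 (2) libraries overlapped with sh-NC, with 0.28 (95% confidence interval -0.06 to 0.62, limma adjusted p = 0.233).

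**Figure D3:**
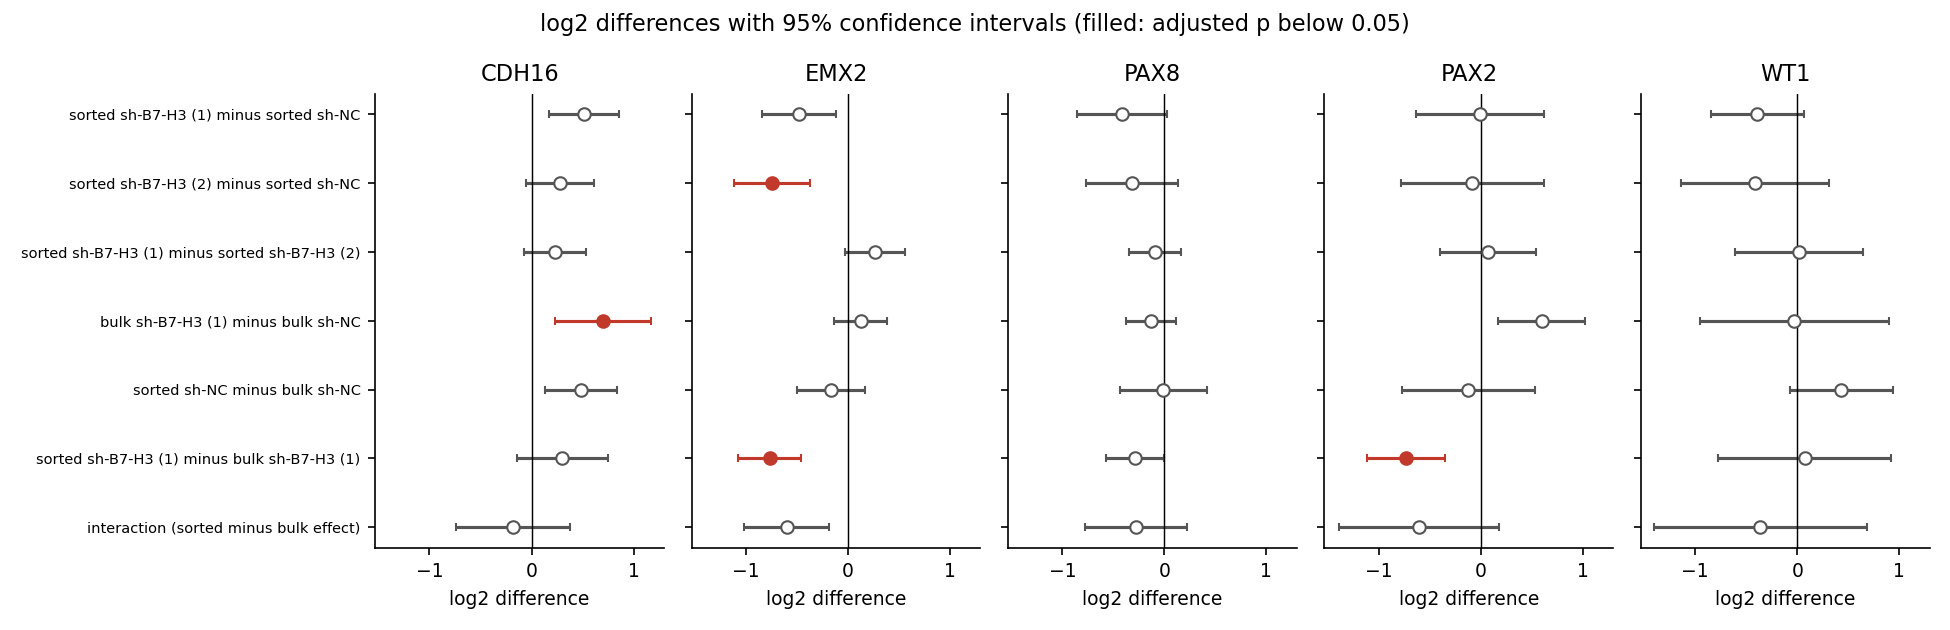
Log2 differences (horizontal axes) of the 5 members that passed the filter in the 7 comparisons (vertical axis), with 95% confidence intervals from limma and filled points where the adjusted p is below 0.05. The filled points are CDH16 in bulk tumors (0.70), EMX2 in sorted sh-B7-H3 (2) cells (-0.74), and EMX2 (-0.77) and PAX2 (-0.73) between sorted and bulk sh-B7-H3 (1) material.

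Host cell markers moved with some of these comparisons. Between bulk sh-B7-H3 (1) and bulk sh-NC tumors, 6 of 8 tested fibroblast markers and 6 of 8 skeletal muscle markers were called higher, as were 2 of 10 tested leukocyte markers, and 0 of 8 tested endothelial markers were called. Summed fibroblast markers were at 430.1 to 860.8 scaled FPKM against 144.0 to 259.8, and summed skeletal muscle markers at 37.8 to 713.7 against 3.13 to 21.9. Their part in the bulk differences of CDH16, PAX2 and LHX1 was not tested. In sorted cells, summed leukocyte markers were at 33.1 to 44.8 with sh-NC, 68.4 to 95.4 with sh-B7-H3 (1) and 62.8 to 685.5 with sh-B7-H3 (2), and 2 of 4 tested were called higher with each shRNA. Summed fibroblast markers were at 53.6 to 97.5, 67.9 to 94.6 and 128.1 to 187.1 in these groups, with 0 of 7 called in sorted sh-B7-H3 (1) cells and 3 of 7 called higher in sorted sh-B7-H3 (2) cells, and 1 of 7 tested skeletal muscle markers was called higher with each shRNA. Their part in the differences of LHX1 and EMX2 between sorted groups was not tested.

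Mesothelial markers were fixed as a list because mesothelium also expresses WT1. Of 6, only MSLN and KRT19 were tested, and both were called higher in the 3 comparisons of sh-B7-H3 with sh-NC. KRT19, a keratin of many epithelia, made up most of the sum, which was at 181.2 to 242.9 scaled FPKM in sorted sh-NC cells, 527.5 to 642.6 with sh-B7-H3 (1) and 615.1 to 691.6 with sh-B7-H3 (2). The mesothelial markers LRRN4, UPK1B and BNC1 never passed 0.0515. UPK3B, the remaining gene of the list, reached 1 scaled FPKM or more in some library, but in too few to be tested. The part of the mesothelial markers in the members' values was not tested.

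The shRNAs against B7-H3 and the materials were also compared with each other. Between sorted sh-B7-H3 (1) and sorted sh-B7-H3 (2) cells, 0 of the 5 members were called with limma (3.4% of 11239 genes), with 0 at an unadjusted p below 0.05 (2471 of all genes tested). The 95% confidence interval of the difference, (1) minus (2), was -0.03 to 0.56 for EMX2, -0.07 to 0.54 for CDH16, -0.35 to 0.16 for PAX8, -0.40 to 0.54 for PAX2 and -0.61 to 0.65 for WT1. With the replicate number as a block EMX2 was called (0.27, limma adjusted p = 0.0393), although the labels do not say that same-numbered libraries are paired. Between sorted and bulk sh-NC material, 0 of 5 were called with limma (16.9% of 11418 genes), with 1 at an unadjusted p below 0.05 (3828 of all genes tested). CDH16, with a difference of 0.49 (limma adjusted p = 0.0665), was the only member whose libraries did not overlap. The share of all genes without overlap was not computed there. In that comparison 9 of 9 tested leukocyte, 7 of 7 endothelial and 6 of 8 fibroblast markers were called lower in sorted cells. All 5 tested skeletal muscle markers were called higher. The part of these host markers in the CDH16 difference was not tested.

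Between sorted and bulk sh-B7-H3 (1) material, 2 of 5 members were called, where 38.2% of 11677 genes were. EMX2 was lower in sorted cells with a difference of -0.77 (standard error 0.13, limma adjusted p = 0.00556) and PAX2 with -0.73 (standard error 0.16, limma adjusted p = 0.0126). Neither gene's libraries overlapped, and the share of all genes without overlap was not computed there. In the same comparison, 10 of 10 tested leukocyte markers, 8 of 8 endothelial markers and 7 of 8 fibroblast markers were called lower in sorted cells, and their part in the EMX2 and PAX2 differences was not tested. Both calls were lost with FPKM as deposited (-0.48 with adjusted p = 0.115 and -0.45 with adjusted p = 0.153, limma), and that of PAX2 also without bulk sh-B7-H3 (1) replicate 1 (adjusted p = 0.0539, limma). Calls were gained by PAX8 without bulk sh-B7-H3 (1) replicate 2 (-0.38, limma adjusted p = 0.0438) and by WT1 without replicate 3 of that group (0.55, limma adjusted p = 0.0222).

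HNF4A and CALB1 were at or near 0 in every library. HNF4A, at chr2:163506808-163572910 on the plus strand, had 17 reads over the 15 libraries and was at 0 in 7 of them. It had 2, 0 and 1 reads in bulk sh-NC tumors, 0, 2 and 0 in bulk sh-B7-H3 (1) tumors, 2, 0 and 0 in sorted sh-NC cells, 0, 0 and 1 with sh-B7-H3 (1), and 5, 2 and 2 with sh-B7-H3 (2). The 5 reads were in sorted sh-B7-H3 (2) replicate 1, the library rich in leukocyte markers. CALB1, at chr4:15881264-15908064 on the plus strand, had 10 reads in all, 4 in bulk sh-B7-H3 (1) replicate 1, and 4, 1 and 1 in sorted sh-B7-H3 (2) cells, and was at 0 in the other 11 libraries. A count of 0 allowed up to 0.0628 scaled FPKM for CALB1 and 0.0401 for HNF4A in the shallowest library, a limit for counting error only. HNF4AOS was listed at 0 in all 15 libraries. Sorted sh-B7-H3 (2) libraries did not overlap with sorted sh-NC or sorted sh-B7-H3 (1) libraries for either gene (exact two-sided permutation test, p = 0.1 in each comparison). These differences rest on 9 HNF4A reads against 2 and 1, and on 6 CALB1 reads against 0 and 0. Of genes above 0 in any library, 19.1% were higher without overlap in sorted sh-B7-H3 (2) cells than in sorted sh-NC. That share was not computed between the shRNAs.

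The labelled renal origin was checked against further genes of the renal program, in 9 lists. Of 19 proximal tubule markers, 13 were below 1 scaled FPKM in every library, and the phosphate transporter SLC34A1 and the organic anion transporters SLC22A6 and SLC22A8 were among the 5 listed at 0 throughout. Of 8 thick ascending limb markers, 7 were below 1 in every library, the salt transporter SLC12A1 included, and the exception was UMOD, or uromodulin, at 3.08 to 201.1. GATA3 and TFCP2L1, factors of the collecting system, were at 14.8 to 40.1 and 8.04 to 13.7, and the collecting duct water channel AQP2 stayed at or below 0.647. Of 8 general kidney epithelial markers, 7 were at 1 or more in every library. Other segment markers were expressed. Among proximal tubule markers the water channel AQP1 was at 3.02 to 35.5, GGT1 at 1.28 to 19.1 and the creatine synthesis enzyme GATM at 0.216 to 22.05. Leaving out each library in turn, the log2 difference of GATM, sorted minus bulk, was -3.18 to -3.16 in sh-NC and -3.66 to -3.54 in sh-B7-H3 (1) material. That of AQP1 was -1.62 to -1.12 in sh-B7-H3 (1) material. No tested proximal tubule marker was called higher in sorted cells. The part of non-tumor cells in these levels was not tested. Among distal markers the calcium-binding protein S100G was at 51.6 to 295.0, and among collecting duct markers FXYD4 was at 4.58 to 73.2 and the cortisol-inactivating enzyme HSD11B2 at 1.204 to 9.47. PAX2, PAX8 and CDH16 were present in every library.

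**Figure D4:**
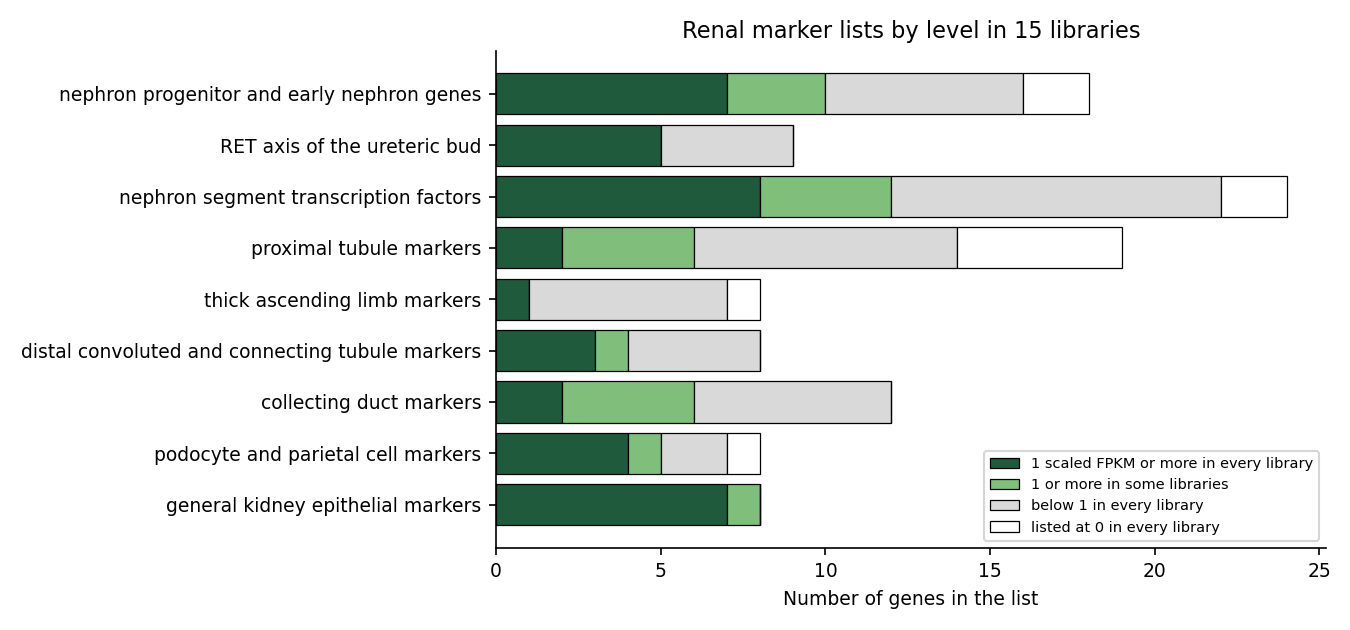
Number of genes (horizontal axis) in each of 9 renal marker lists (vertical axis) at 1 scaled FPKM or more in every library, in some libraries, below 1 in every library, or listed at 0 in every library. Thick ascending limb and proximal tubule markers are mostly below 1, with 7 of 8 and 13 of 19, and 7 of 8 general kidney epithelial markers are at 1 or more throughout.

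Part of that program moved with the sh-B7-H3 labels. Over 8 of these lists, with 106 genes and without the general markers, 8 genes were called higher and 6 lower of 40 tested in sorted sh-B7-H3 (1) cells, 10 higher and 4 lower of 41 in sorted sh-B7-H3 (2) cells, and 15 higher and 3 lower of 40 in bulk sh-B7-H3 (1) tumors. Of all genes tested, 13.4%, 19.1% and 21.4% were called in either direction in these comparisons. The lists were chosen with earlier results of these data known and were not tested as sets, so the counts describe the lists only. Of the 8 general markers, 2 were called higher and 1 lower in sorted sh-B7-H3 (1) cells and in bulk tumors. In sorted sh-B7-H3 (2) cells, 3 were called higher and 0 lower. EPCAM was called higher in all 3 comparisons, at 17.2 to 27.4 scaled FPKM in sorted sh-NC cells, 126 to 168 with sh-B7-H3 (1) and 164 to 221 with sh-B7-H3 (2). CDH6, the gene called lower, passed the filter only through its sh-NC libraries. In the list of 18 nephron progenitor and early nephron genes, the adhesion molecule NCAM1 was called lower in all 3 comparisons, and the Notch ligand JAG1 higher in sorted sh-B7-H3 (2) cells and in bulk tumors. The counts of higher genes over the 8 lists include WNT4, which passed the filter only through its sh-B7-H3 libraries and so had to differ to be tested. WNT4 was not the only gene that needed its sh-B7-H3 libraries to pass, so these counts depend in part on the filter.

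WNT4, which acts with LHX1 in the renal vesicle, was at 0.209, 0.138 and 0.0908 scaled FPKM in sorted sh-NC cells and at 1.65, 1.12 and 1.17 with sh-B7-H3 (1). It was at 2.15, 1.52 and 1.87 in sorted sh-B7-H3 (2) cells. Bulk tumors were at 0.411, 0.316 and 0.155 with sh-NC and at 2.37, 1.76 and 1.57 with sh-B7-H3 (1). The groups did not overlap in either material. Higher values without overlap were common, with 15.1%, 19.1% and 21.6% of genes above 0 in any library in the 3 comparisons. Tested without the filter, as LHX1 was, WNT4 had log2 differences of 1.01 (limma adjusted p = 0.00303), 1.31 (limma adjusted p = 0.00175) and 1.16 (limma adjusted p = 0.0119). At that setting 6.89%, 8% and 7.06% of genes were called higher. The progenitor factor SIX2 stayed at or below 0.176, and FGF8 and HES5 were listed at 0 in every library.

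In the list of 24 segment transcription factors, IRX3, a factor of the intermediate nephron segments, was called higher in all 3 comparisons. Its log2 differences were 0.70, 0.92 and 1.07 (limma adjusted p = 0.0216, 0.0108 and 0.0392). MAF, the most abundant factor of the list in sorted sh-NC cells (mean 23.0 scaled FPKM), was called lower in sorted sh-B7-H3 (2) cells. Its log2 difference there was -0.94 to -0.66 with each library left out in turn. In the other 2 comparisons 0 factors of the list were called lower. Among segment markers, UMOD rose by 3.01 and 4.09 on the log2 scale in sorted sh-B7-H3 (1) and (2) cells and by 2.74 in bulk sh-B7-H3 (1) tumors (limma adjusted p = 0.00288, 0.000736 and 0.0365). GGT1, a brush border enzyme, rose by 2.78, 2.77 and 2.06, and FXYD4, a regulator of the sodium pump in the collecting duct, by 3.04, 2.60 and 2.37. Other markers of the same segments were called lower. In sorted sh-B7-H3 (1) cells these were AQP1 (-0.98, limma adjusted p = 0.0344), HSD11B2 (-0.76, limma adjusted p = 0.0237) and ATP6V0D2, a subunit of the proton pump (-0.62, limma adjusted p = 0.0309). HSD11B2 was also called lower in sorted sh-B7-H3 (2) cells (-1.37, limma adjusted p = 0.0160), and S100G was called higher there (1.14, limma adjusted p = 0.0367). Of the proximal tubule markers tested in sorted sh-B7-H3 (1) cells, 1 was thus called higher and 1 lower of 3, and of the collecting duct markers 3 higher and 2 lower of 5. Only 3 collecting duct markers had a mean of 1 scaled FPKM or more in sorted sh-NC cells. Others of the 5 thus passed the filter only with their sh-B7-H3 libraries, and these counts depend on it. In the list of 9 genes of the RET axis, which guides growth of the ureteric bud, ETV4 was called lower in sorted sh-B7-H3 (1) cells (-0.88, limma adjusted p = 0.0124) and in bulk sh-B7-H3 (1) tumors (-0.85, limma adjusted p = 0.0258), and RET itself stayed at or below 0.0658 scaled FPKM. The calls of GGT1 and FXYD4 in these 3 comparisons held in every alternative that gave a value. Those of ETV4, AQP1, HSD11B2, ATP6V0D2 and S100G, of JAG1 in both comparisons, of NCAM1 and UMOD in bulk tumors, and of IRX3 in sorted sh-B7-H3 (1) cells and bulk tumors were lost in some of them.

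Across the 15 libraries, likeness of pattern was measured as Pearson's r of log2 values over 12194 genes. EMX2 was followed most closely by UBE2R2, PTMS and SPG20 (r = 0.966, 0.965 and 0.955), PAX8 by HK1, ZFAND3 and SLC41A1 (0.945, 0.932 and 0.932), and PAX2 by EFNA5, DOCK9 and PBX3 (0.945, 0.941 and 0.940). CDH16 was followed by EFEMP1, EZR and GPHN (0.893, 0.888 and 0.880) and WT1 by RIDA, HDAC2 and NME7 (0.784, 0.757 and 0.752). Between members, the highest values were 0.756 for EMX2 with PAX8 and 0.676 for EMX2 with PAX2, and CDH16 had -0.389 with both EMX2 and PAX8. The points share groups, scale factors and, for each library, the same RNA, so these values describe the 15 libraries only.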

How the data were processed

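Polyadenylated RNA from 15 libraries was sequenced with single-end reads of 75 cycles. The methods name a KAPA kit and the labels an Illumina stranded kit. The authors deposited 1 table of FPKM, which is scaled to gene length and library size, although it is named for counts. The labels give mm10, and the aligner, the counting and the annotation are not given in the sources used here. A smaller deposited table repeats some genes as log2 values and was not used here. From 24917 entries, 26 with symbols turned into dates were left out.

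FPKM was divided by median-ratio factors over 9872 genes (0.650 to 1.18 per library) and taken to log2 with a pseudocount of 1. Tests used limma 3.58.1 with a mean-variance trend (R 4.3.3), with Benjamini-Hochberg adjustment over all genes tested, and exact permutation tests for genes below the filter (scipy 1.17.1). The tests were tried on simulated data first. Absolute depth is unknown, and only relative depth could be read from the lowest values. Reads of single genes were recovered where FPKM stepped in multiples of a common value (tolerance 0.15). Sequences are from RefSeq tables of GRCm38.p6, which held promoters for 5 of the 8 members, and positions are from GENCODE M21.

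The members and gene lists were chosen with earlier results of these data known. Named genes were all 8 members, their antisense neighbors, up to 3 called genes per direction and list, the 3 genes most like each member, and CD276. POU3F3 was added after its values were seen. Same-numbered libraries of sorted sh-B7-H3 (1) and (2) cells deviated together from their group means (Pearson's r across genes 0.209 to 0.229). The labels do not say that they share an animal or day. Unlike-numbered libraries reached 0.544 between bulk groups, so a pairing by number was not established. Alternatives changed scaling, filter, pseudocount, block, the groups fitted together, or left out each library in turn.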

Additional observations from a re-analysis of the deposited data

Results flagged for a closer look

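Differences between the 2 shRNAs against B7-H3 in sorted cells, (1) minus (2), passed the limma test for 5 of the genes named here, and none of these is a member. The log2 differences were -2.75 for CDH6, a cadherin of the renal vesicle and proximal tubule (adjusted p = 0.0370), -1.16 for CD276 (adjusted p = 0.0277), -0.74 for JAG1 (adjusted p = 0.0449), 0.68 for HOXB7, a factor of the ureteric bud lineage (adjusted p = 0.0210), and 0.81 for the water channel AQP3 (adjusted p = 0.0416). CDH6 was at 0.177, 0.305 and 0.351 scaled FPKM with sh-B7-H3 (1) and at 2.18, 13.4 and 12.8 with sh-B7-H3 (2). It passed the filter only through the sh-B7-H3 (2) libraries, so it had to differ to be tested, and without the filter it was not called (limma adjusted p = 0.115).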

How the results depend on the processing

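Of 520 recomputed values of the members, 471 kept direction and side of the threshold, 16 lost and 10 gained a call, and 23 changed sign, 0 of them with a call. Of 1362 values of the other named genes, 1059 kept both, 294 lost and 5 gained a call, and 4 changed sign. Causes were not tested. Absolute depth is unknown, and LHX1, HNF4A, CALB1 and LHX1OS rest on few reads, which limits what can be seen in them.

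In sorted sh-B7-H3 (1) cells against sh-NC, the number of members called was 1 with no filter, with all groups fitted together and with the filter of 0.1 scaled FPKM with pseudocount 0.1. In sorted sh-B7-H3 (2) cells it was 0 with FPKM as deposited, 2 with no filter and 2 with the filter of 0.1. In bulk tumors it was 0 with FPKM as deposited, 2 with 1 scaled FPKM in every library and 2 with the filter of 0.1, and between sorted and bulk sh-B7-H3 (1) material 0 with FPKM as deposited. FPKM as deposited changed the sign of PAX2 in sorted sh-B7-H3 (1) (0.17) and (2) cells (0.13) and between sh-NC materials (0.0033), of PAX8 between sh-NC materials (0.13), and of WT1 between the shRNAs (-0.00140). With that scaling the median log2 difference of all genes reached 0.232 between sorted and bulk sh-B7-H3 (1) material, against -0.030 in the main fit. There 3035 genes were called higher and 898 lower against 2000 and 2464. In the other comparisons with a moved split, higher and lower calls were 1186 and 223 against 1008 and 489 in sorted sh-B7-H3 (1) cells, 1608 and 325 against 1313 and 837 in sorted sh-B7-H3 (2) cells, 675 and 286 against 1515 and 1005 in bulk tumors, 132 and 520 against 740 and 1184 between sh-NC materials, and 86 and 42 against 30 and 26 for the difference of the effect. With quantile normalization they were 975 and 765, 1129 and 1205, 1036 and 1229, 1315 and 948, and 27 and 15 in the same order, and 2205 and 1750 between sh-B7-H3 (1) materials, so that the larger side turned in sorted sh-B7-H3 (2) cells, bulk tumors and both comparisons of materials. No member changed sign with quantile normalization. Libraries also differed in how much FPKM fell on a single entry, MIR6236. Its share was 79.7% in bulk sh-NC replicate 3 and 74.4% in bulk sh-B7-H3 (1) replicate 2. Among sorted cells it was 51.6% in sh-NC replicate 2, and it was lowest in sh-B7-H3 (1) replicate 3, at 6.01%. The part of MIR6236 in the changed signs and calls was not tested.

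With the replicate number as a block, 1864 genes were called between the shRNAs in sorted cells against 382, and 1 member. The labels do not state a pairing there. Elsewhere same-numbered libraries did not all deviate together, and the block gave 915 calls in sorted sh-B7-H3 (1) cells, 1395 and 0 members in sorted sh-B7-H3 (2) cells, 1413 and 0 members in bulk tumors, and 24 for the difference between materials. Over all genes, the calls were 137 between the shRNAs with no filter, and 961 in bulk tumors with FPKM as deposited. Between sh-NC materials they were 652 with FPKM as deposited, 1279 with 1 scaled FPKM in every library and 3082 with all groups together. For the difference of the effect between materials, against 56, they were 128 with FPKM as deposited, 13 with 1 scaled FPKM in every library, 25 with pseudocount 0.1, 36 with all groups together and 29 with the filter of 0.1.

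Leaving out each library in turn gave 722 to 1948 calls in sorted sh-B7-H3 (1) cells, 962 to 3614 in sorted sh-B7-H3 (2) cells, 35 to 890 between the shRNAs, 546 to 3793 in bulk tumors, 139 to 4436 between sh-NC materials, 1674 to 3814 between sh-B7-H3 (1) materials and 12 to 72 for the difference of the effect. Members called were 0 to 2, 0 to 1, 0 to 2 in bulk tumors and 1 to 3 between sh-B7-H3 (1) materials. The log2 difference of PAX2 was -0.27 to 0.29 in sorted sh-B7-H3 (1) cells, -0.34 to 0.22 in sorted sh-B7-H3 (2) cells, -0.15 to 0.23 between the shRNAs and -0.42 to 0.13 between sh-NC materials, where PAX8 was -0.18 to 0.18. WT1 was -0.32 to 0.20 between the shRNAs, -0.51 to 0.23 in bulk tumors, -0.19 to 0.55 between sh-B7-H3 (1) materials and -0.62 to 0.12 for the difference of the effect. CD276 was -0.071 to 0.40 in sorted sh-B7-H3 (2) cells, -0.16 to 0.052 in bulk tumors and -0.26 to 0.21 between sh-NC materials. The LHX1 ratio of sorted to bulk sh-NC was 0.611 to 1.25, and its ratios of sh-B7-H3 to sh-NC stayed between 3.25 and 13.1.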

Other observations

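POU3F3, a factor of the thick ascending limb and distal tubule, was singled out after its values were seen. It was at 3.20 and 3.19 scaled FPKM in sorted sh-B7-H3 (2) replicates 2 and 3, at 0.127 in replicate 1 of that group, and at or below 0.0730 in the other 12 libraries. CDH6 divided the same libraries, with 13.4 and 12.8 against 2.18 in replicate 1. Replicate 1 was also the library with 685.5 scaled FPKM of summed leukocyte markers.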
